A study of Mus musculus with 6 samples.

Results

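A set of 10 genes of zinc handling was followed in the retina of wild-type mice and of mice carrying the C234W substitution in Elovl2. They are 3 metallothioneins (Mt1, Mt2 and Mt3), 3 zinc importers of the ZIP family (Slc39a4, Slc39a10 and Slc39a14), 3 exporters of the ZnT family (Slc30a1, Slc30a3 and Slc30a10) and Mtf1, which encodes the zinc-sensing transcription factor. They were found by gene symbol and make up 10 of the 25124 gene models in the deposited table, and 10 of 14685 that were tested. Slc39a4 was chosen by its measured fall in C234W, that is by its counts in these same libraries. Its values are therefore given as a description without a test. The other 9 were included by family, but do not cover the whole ZIP and ZnT families. They too were chosen with earlier results of these data known.

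The tissue was fresh bulk retina from C57BL/6J mice at 4 months of age, sequenced as poly-A RNA in 6 libraries. There were 3 libraries of wild-type mice (WT1A, WT2A and WT2B) and 3 of Elovl2(C234W) mice (FS3A, FS3B and FS5A). Elovl2 encodes an elongase of long-chain polyunsaturated fatty acids, on the route to the docosahexaenoic acid of photoreceptor membranes. The labels name no treatment and do not say whether a library is 1 mouse or a pool, nor whether the substitution is on 1 or both alleles. The prefix FS is not explained and was taken as C234W by elimination, because the command recorded in the header lists 3 directories of each genotype. Each direction given here rests on that. The pair WT2A and WT2B carry one number, as do FS3A and FS3B, and nothing says that each library is a separate mouse. The p-values therefore measure the spread between these libraries, which may be technical.

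Zinc inside cells is held low by proteins that import, export or bind it. ZIP proteins (Slc39a) carry zinc into the cytosol, and ZnT proteins (Slc30a) carry it out of the cytosol, across the plasma membrane or into vesicles. Metallothioneins are small cysteine-rich proteins that bind zinc and copper and release zinc under oxidation. MTF1 binds to metal response elements in DNA when free zinc increases, and metallothionein genes and Slc30a1 are its best-known targets. The retina, above all its photoreceptors and the adjoining pigment epithelium, is rich in zinc, and retinal metallothioneins respond to metals, glucocorticoids, cytokines and injury.

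The promoters of Mt1, Mt2 and Slc30a1 are shown because Mt1 and Mt2 varied together across the libraries while Slc30a1, another target of the same factor, did not follow them. RefSeq gave windows for 8 of the 10 genes, on GRCm38.p6, and none for Slc39a4 and Slc39a14. Each window runs from 250 bases before the annotated start to 50 bases after it. All 3 genes lie on the plus strand, and the start used by each window is the first base of the deposited gene model. Capitals mark matches to the core of the metal response element, searched as TGCACNC and TGCGCNC and, for the other strand, as GNGTGCA and GNGCGCA.
Mt1 (chr8:94178839-94179138): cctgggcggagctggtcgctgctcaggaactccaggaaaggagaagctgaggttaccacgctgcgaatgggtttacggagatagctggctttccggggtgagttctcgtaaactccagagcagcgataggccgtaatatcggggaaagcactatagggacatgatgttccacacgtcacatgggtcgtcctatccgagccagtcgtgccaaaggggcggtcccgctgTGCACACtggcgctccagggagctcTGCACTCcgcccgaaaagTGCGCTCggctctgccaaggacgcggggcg
Mt2 (chr8:94172368-94172667): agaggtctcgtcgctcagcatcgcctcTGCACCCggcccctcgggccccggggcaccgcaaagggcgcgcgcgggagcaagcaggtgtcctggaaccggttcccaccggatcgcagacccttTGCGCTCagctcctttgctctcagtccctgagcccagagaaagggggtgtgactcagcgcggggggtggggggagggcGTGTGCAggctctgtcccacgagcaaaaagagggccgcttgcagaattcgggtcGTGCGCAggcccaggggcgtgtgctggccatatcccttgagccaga
Slc30a1 (chr1:191906531-191906830): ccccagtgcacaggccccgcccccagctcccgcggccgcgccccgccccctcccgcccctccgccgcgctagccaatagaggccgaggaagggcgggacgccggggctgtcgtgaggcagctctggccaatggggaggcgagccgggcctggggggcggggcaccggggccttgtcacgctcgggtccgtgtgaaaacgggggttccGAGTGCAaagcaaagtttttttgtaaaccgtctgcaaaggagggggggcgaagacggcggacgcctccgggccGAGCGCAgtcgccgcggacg
Mt2 held 4 matches, Mt1 held 3 and Slc30a1 held 2. Of 32851 windows of 300 bases in the same set, 25.7% held at least 1 match, 7.11% at least 2, 1.97% at least 3 and 0.517% at least 4. Slc30a10 held 3 matches, of which 1 on each strand overlap in a palindrome, and Mt3 held 1, TGCACAC, at 28 to 34 bases after its start. The windows of Mtf1 and of Slc39a10 held none of these letters. For Slc30a3 the window at the deposited gene model held none, and an upstream alternative window held 1. In Mt1 the matches began 23 bases before the annotated start and 3 and 21 bases after it. In Mt2 they began 223, 128 and 50 bases before and 5 bases after the annotated start. A match is a string of letters and was not tested for binding. Whether transcription in these libraries begins at the annotated starts was not tested. Bases outside the windows were not searched, so these numbers are not totals for a promoter.

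Counts in genes ran from 14184093 to 19298613 per library, and levels are given as CPM, the usual depth-scaled unit, with TMM factors. Gnat1, the transducin alpha subunit of rod photoreceptors and a defining marker of retina, was abundant in every library, at 19726 to 33481 CPM in wild type and 13445 to 17246 CPM in C234W. Elovl2 itself averaged 139 ± 3.01 CPM in the wild-type libraries and 96.1 ± 17.9 CPM in the C234W ones (SD, n = 3 each), which does not check the labels, since a substitution need not change the transcript. The summed pigment epithelium markers (10 genes) were at 802 CPM in WT1A against 83.7 to 191 CPM in the other 5 libraries. Ttr (327 CPM) and Rgr (287 CPM) were the largest parts. Best1, Pmel and Mlana of that list were not highest in WT1A, and Pmel and Mlana were highest in FS5A. The summed rod markers were also highest in WT1A, at 151941 CPM, with 98420 and 103855 CPM in WT2A and WT2B. They were lower in each C234W library than in each wild-type one, at 65630 to 86436 CPM in C234W. Of that list, Pde6b, Cnga1, Nrl, Nr2e3 and Rp1 overlapped between the groups when taken singly. In edgeR's quasi-likelihood test, 1.46% of all tested genes passed, which here means a p adjusted by Benjamini-Hochberg below 0.05. Before adjustment 25.4% had a p below 0.05 (11.9% higher and 13.5% lower in C234W), and 29.1% (12.6% higher and 16.4% lower) had groups whose libraries did not overlap. Because the tissue is bulk retina, fewer cells of a type and less RNA per cell cannot be told apart.

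The genes differed by over 3 orders of magnitude in level once scaled to transcript length. Mt2 and Mt1 stood at the top, with 695 and 596 CPM per kilobase over both genotypes, above 99.7% and 99.6% of tested genes. Their ranges over the 6 libraries overlapped, from 209 to 1328 for Mt2 and from 212 to 1074 CPM per kilobase for Mt1. Mt3 followed at 37.3 to 57.5 CPM per kilobase, below every library of Mt1 and Mt2. Slc39a14 (3.90 to 10.8), Slc30a1 (4.81 to 8.82), Slc39a10 (3.26 to 7.54) and Mtf1 (3.01 to 6.42 CPM per kilobase) overlapped one another. Slc30a3 (1.13 to 2.07) and Slc39a4 (0.468 to 2.32 CPM per kilobase) came next and also overlapped. Slc30a10 was lowest, at 0.177 to 0.533 CPM per kilobase, above 4.10% of tested genes, and overlapped the lowest library of Slc39a4.

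Of the 9 genes other than Slc39a4, 0 passed in edgeR over all tested genes, beside 1.46% of all genes. At an unadjusted p under 0.05 there were 2 of the 9, Slc39a14 and Mtf1, both higher in C234W, beside 25.4% of all genes and 11.9% in that direction. DESeq2 and limma-voom also called 0 of the 9, beside 11.9% and 1.63% of all genes. None of the 9 had groups that did not overlap, beside 29.1% of all genes. Of the 9, 6 had a positive and 3 a negative log2 fold change, with a median of 0.15 against 0.023 over all tested genes.

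**Figure D1:**
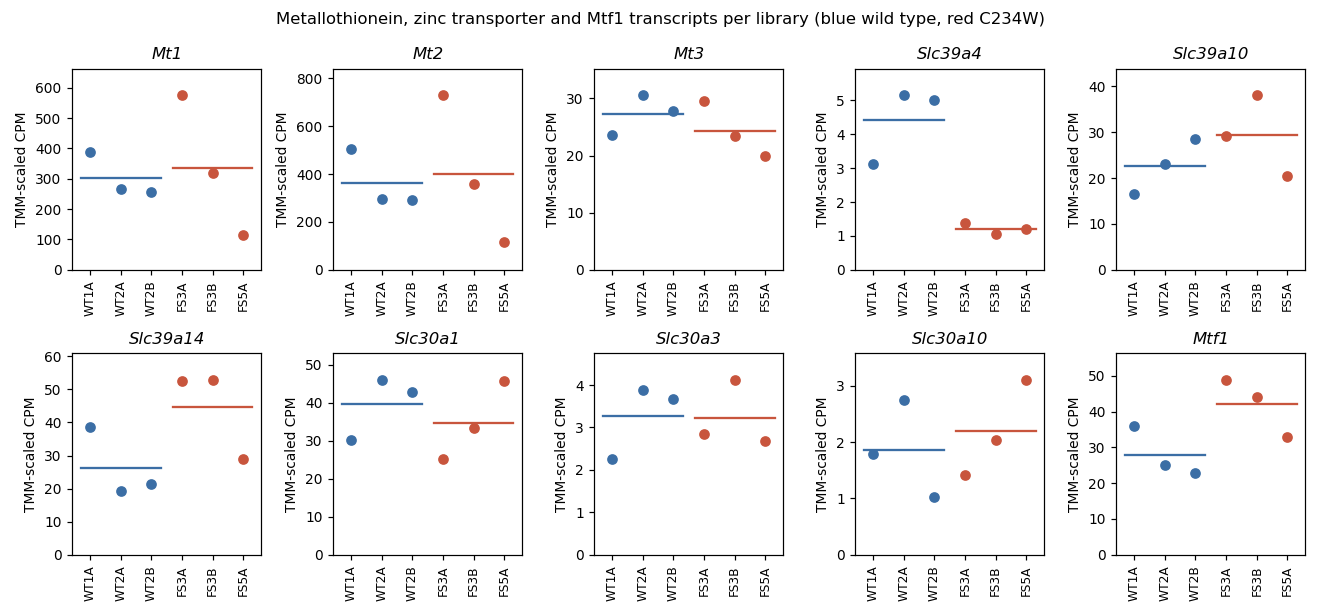
TMM-scaled CPM of each of the 10 genes (vertical axis, from 0, a separate scale per panel) in each library (horizontal axis), with points for libraries and lines for group means. Slc39a4 is lower in each C234W library than in each wild-type one, and Mt1 and Mt2 run from their highest value in FS3A to their lowest in FS5A.

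Mt1 and Mt2 encode the metallothioneins found in most tissues, and both are readily induced. They lie side by side on chromosome 8 of mm10, Mt2 (NM_008630) from 94172618 to 94173567 and Mt1 (NM_013602) from 94179089 to 94180327, both on the plus strand, with 5522 bases between them. Mt1 was measured at 387, 266 and 256 CPM in WT1A, WT2A and WT2B, and at 577, 318 and 114 CPM in FS3A, FS3B and FS5A. The highest and the lowest of the 6 libraries were thus both C234W, and the groups overlapped. Mt1 averaged 303 ± 73.1 CPM in the wild-type libraries and 336 ± 232 CPM in the C234W ones (SD, n = 3 each), a log2 fold change of 0.15 with an SE of 0.494 (adjusted p = 0.878 in edgeR). Mt2 was measured at 506, 295 and 291 CPM in WT1A, WT2A and WT2B, and at 732, 359 and 115 CPM in FS3A, FS3B and FS5A. The order of the libraries was the same as for Mt1. The log2 fold change of Mt2 was 0.14 (SE 0.579, adjusted p = 0.901 in edgeR).

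The spread within the C234W group was larger than the difference between the genotypes. The highest C234W library exceeded the lowest 5.06-fold for Mt1 and 6.35-fold for Mt2, against 1.51-fold and 1.73-fold within wild type. The sign depended on FS3A and on the tool. Without FS3A the log2 fold changes were -0.486 for Mt1 and -0.617 for Mt2, and without FS5A they were 0.561 and 0.582. With all 6 libraries, limma-voom gave -0.116 and -0.18. Both transcripts are short (537 and 551 bases). With the trend of expression on transcript length removed from each library, the log2 fold changes were 0.643 and 0.62, and neither passed.

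Mt1 and Mt2 varied in near proportion from library to library. Mt2 counts divided by Mt1 counts gave 1.31, 1.11 and 1.14 in WT1A, WT2A and WT2B. The C234W libraries FS3A, FS3B and FS5A gave 1.27, 1.13 and 1.01. The ratio was highest in the 2 libraries with the most Mt1, WT1A and FS3A, and lowest in FS5A, which had the least. Together the 2 genes made up 0.0238% of counts in FS5A and 0.139% in FS3A. On the log2 CPM scale Mt2 was also the gene whose pattern over the 6 libraries was most like that of Mt1 (Pearson r 0.998) among 13294 compared. The next were Ninj1, an adhesion protein induced by nerve injury (0.993), Stac2 (0.990), Mest (0.985) and Ezr, the membrane-cytoskeleton linker ezrin (0.977). These values come from the same 6 libraries, share their depth and scaling, and are descriptions without a p. Ninj1 was at 32.5 CPM in FS3A and 10.1 CPM in FS5A, and Ezr at 43.4 and 12.7 CPM.

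Genes of reactive gliosis and the acute phase, a stress state of Müller glia and astrocytes, also varied within the C234W group. The summed level of the 12 listed genes, all of them detected, was 558, 237 and 233.8 CPM in WT1A, WT2A and WT2B, and 1396, 901 and 265 CPM in FS3A, FS3B and FS5A. As for Mt1, FS3A was highest and WT1A highest among wild type, but FS5A was not lowest. Gfap, the intermediate filament of reactive glia, was at 248 and 26.5 CPM in FS3A and FS5A, and Socs3, a feedback inhibitor of cytokine signalling, at 131 and 17.8 CPM. Both were chosen after their values were seen. The summed Müller glia markers did not follow this order, with 5328, 6439 and 4563 CPM in FS3A, FS3B and FS5A and 5936 to 7865 CPM in wild type. The part of gliosis genes in the values of Mt1 and Mt2 was not tested.

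Glucocorticoids induce Mt1 and Mt2, and a list of 12 glucocorticoid-induced genes was examined beside them. Of 11 tested, 0 passed in edgeR and 0 in DESeq2, beside 1.46% and 11.9% of all genes. At an unadjusted p under 0.05 there were 4, all lower, beside 13.5% of all genes in that direction. The median log2 fold change was -0.407, against 0.023 over all tested genes. Klf9, a transcription factor with the smallest p in the list, was at 219 ± 33.5 CPM in wild type and 156 ± 18.6 CPM in C234W (SD, n = 3 each), a log2 fold change of -0.49 with an SE of 0.171 (adjusted p = 0.131 in edgeR). Without WT1A, 4 of the 11 passed, beside 18.5% of all genes, and they did not share a direction. Klf9 (log2 fold change -0.592, adjusted p = 0.0384 in edgeR) and Tsc22d3 (-0.953) were lower there. Fkbp5 (0.835) and Sgk1 (0.665) were higher.

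**Figure D2:**
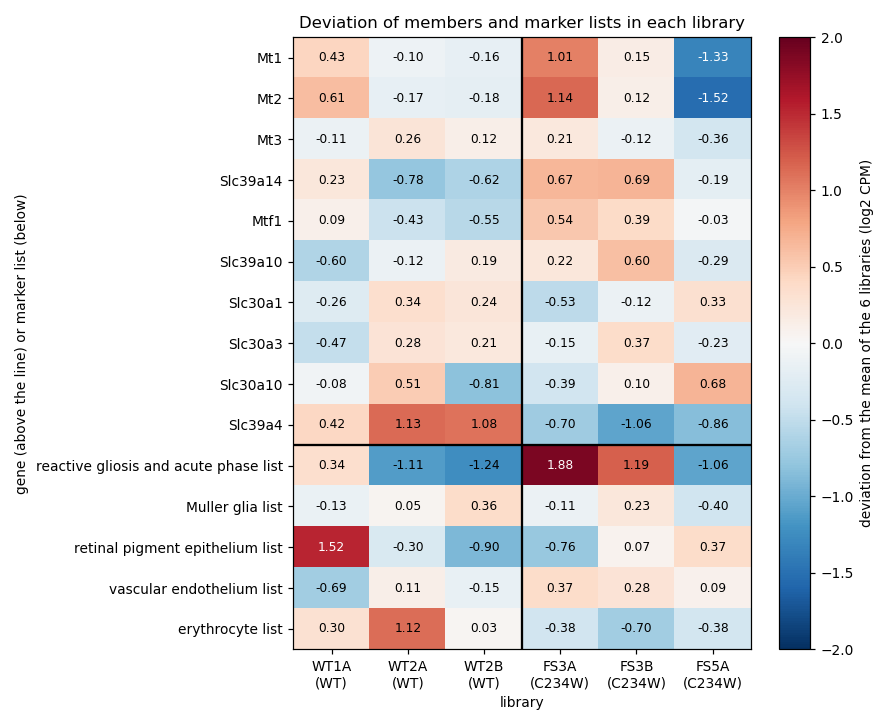
Deviation of log2 CPM from the mean of the 6 libraries (colour and printed value) for each of the 10 genes and, below the line, the mean over the tested genes of 5 marker lists, with libraries as columns. Mt1 and Mt2 are at 1.01 and 1.14 in FS3A and -1.33 and -1.52 in FS5A, and the gliosis list is at 1.88 and -1.06 in the same libraries.

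Mt3 encodes the metallothionein of brain and other nervous tissue, which was first described as a growth-inhibitory factor and is little induced by metals. It lies upstream of Mt2 on chromosome 8 (94152607 to 94154148, plus strand, NM_013603). Mt3 was at 23.6, 30.6 and 27.7 CPM in WT1A, WT2A and WT2B and at 29.6, 23.5 and 19.9 CPM in FS3A, FS3B and FS5A. The groups overlapped, and the spread within C234W, 1.49-fold, was far below that of Mt1 and Mt2. The log2 fold change was -0.17 (SE 0.199, adjusted p = 0.622 in edgeR). It was 0.369 with the length trend removed, so its sign turned, and it did not pass there either. Mt4, the metallothionein of stratified epithelium, had 2.5 counts in FS3A and 0 in the other 5 libraries, and was not tested.

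Slc39a4 encodes ZIP4, the importer that takes up dietary zinc in the intestine and whose loss causes acrodermatitis enteropathica. It lies on chromosome 15 (76612383 to 76616870, minus strand, NM_028064). Slc39a4 had 47, 96 and 67.5 counts in WT1A, WT2A and WT2B and 25, 21.5 and 20.5 counts in FS3A, FS3B and FS5A. In CPM these were 3.12, 5.17 and 5.003 in wild type and 1.37, 1.04 and 1.22 in C234W. The lowest wild-type library, WT1A, was above the highest C234W library, FS3A, and the C234W libraries lay close together. The means were 4.43 ± 1.14 and 1.21 ± 0.163 CPM (SD, n = 3 each), a ratio of 0.273, and the log2 fold change was -1.87. Because this gene was chosen for that difference, no test is given. The log2 fold change lay between -2.06 and -1.71 over the alternatives tried, including -1.80 with the length trend removed and -2.06 without WT1A.

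Slc39a4 does not overlap another gene model. The neighbours on either side lie 4792 bases (Cpsf1) and 5216 bases (Vps28) away, on the same strand, and had log2 fold changes of 0.149 (SE 0.184) and -0.163 (SE 0.184). Both neighbours differed by less than their SE. The genes most like Slc39a4 over the 6 libraries were Cgrrf1, the ribosomal protein gene Rps25, Fkbp8, the mitochondrial ribosomal protein gene Mrpl13 and Rwdd1 (Pearson r 0.998, 0.998, 0.998, 0.997 and 0.997). Each was lower in every C234W library than in every wild-type one. They were picked for likeness to a gene chosen for being lower, so this says nothing further. Of the genes compared, 1149 of 13294 had an r of at least 0.9 with Slc39a4, against 65 with Mt1. With Slc39a4 itself, Mt1 had an r of 0.04.

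Slc39a14 encodes ZIP14, which carries zinc, iron and manganese and is induced by interleukin-6 in the acute phase. It lies on chromosome 14 (70303467 to 70351424, minus strand, NM_144808). Slc39a14 was at 38.5, 19.2 and 21.3 CPM in WT1A, WT2A and WT2B and at 52.4, 52.9 and 28.8 CPM in FS3A, FS3B and FS5A. FS5A lay below WT1A, so the groups overlapped. The log2 fold change, 0.765 (SE 0.319), missed the threshold (adjusted p = 0.179 in edgeR). Without WT1A it was 1.151 and passed (adjusted p = 0.0311 in edgeR). In that fit 18.5% of all genes passed, with 9.13% of all genes passing as higher. With any other library left out the log2 fold change ran from 0.583 to 0.999 and did not pass (adjusted p of 0.129 to 0.436 in edgeR). The gliosis and acute-phase list was also highest in FS3A and FS3B, and WT1A was above the other wild-type libraries for both. The part of those genes in this value was not tested.

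Slc39a10 encodes ZIP10, an importer of the plasma membrane that is known to be repressed through MTF1 when zinc is plentiful. It lies on chromosome 1 (46807544 to 46853618, minus strand, NM_172653). Slc39a10 was at 16.5, 23.0 and 28.5 CPM in WT1A, WT2A and WT2B and at 29.2, 38.1 and 20.5 CPM in FS3A, FS3B and FS5A. The groups overlapped through FS5A. The log2 fold change was 0.37 (SE 0.273, adjusted p = 0.417 in edgeR), and it was 0.193 without WT1A.

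The exporters showed no difference that passed. Slc30a1 encodes ZnT1, the exporter of the plasma membrane, and lies on chromosome 1 (191906781 to 191913247, plus strand, NM_009579). Slc30a1 was at 30.3, 46.1 and 43.0 CPM in WT1A, WT2A and WT2B and at 25.1, 33.3 and 45.6 CPM in FS3A, FS3B and FS5A. Its lowest library was FS3A, the highest for Mt1 and Mt2, and FS5A, their lowest, was near its top (Pearson r with Mt1 of -0.841 over the 6 libraries, as a description). The log2 fold change of Slc30a1 was -0.20 (SE 0.25, adjusted p = 0.649 in edgeR).

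Slc30a3 encodes ZnT3, which loads zinc into synaptic vesicles, and lies on chromosome 5 (31086106 to 31093527, minus strand, NM_011773). Slc30a3 was at 2.26, 3.88 and 3.68 CPM in WT1A, WT2A and WT2B and at 2.85, 4.13 and 2.68 CPM in FS3A, FS3B and FS5A. The groups covered nearly the same range, and the log2 fold change was -0.021 (SE 0.34, adjusted p = 0.978 in edgeR). Slc30a10 encodes an exporter best known for manganese, and lies on chromosome 1 (185454848 to 185468761, plus strand, NM_001033286). Slc30a10 had 27, 51 and 14 counts in WT1A, WT2A and WT2B and 25.5, 43 and 51 counts in FS3A, FS3B and FS5A. In CPM the range was 1.03 to 2.75 in wild type and 1.42 to 3.11 in C234W, with a log2 fold change of 0.22 with an SE of 0.461 (adjusted p = 0.798 in edgeR).

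Mtf1 lies on chromosome 4 (124802549 to 124849800, plus strand, NM_008636). Mtf1 was at 36.0, 24.97 and 23.0 CPM in WT1A, WT2A and WT2B and at 48.9, 44.1 and 33.0 CPM in FS3A, FS3B and FS5A. FS5A was below WT1A, so the groups overlapped. The means were 28.0 ± 7.02 CPM and 42.0 ± 8.18 CPM (SD, n = 3 each), a log2 fold change of 0.59 (SE 0.227) that did not pass (adjusted p = 0.157 in edgeR). It was 0.815 without WT1A and passed there (adjusted p = 0.0329 in edgeR), beside 18.5% of all genes, with 9.13% passing as higher. With any other library left out it ran from 0.465 to 0.733 and did not pass (adjusted p of 0.141 to 0.423 in edgeR). With the length trend removed it was 0.318, and the Mtf1 transcript is the longest of the 10, at 7618 bases. A gene model on the opposite strand, 1110065P20Rik, overlaps Mtf1 and was lower in C234W (log2 fold change -0.90, SE 0.183, adjusted p = 0.0512 in edgeR). Counting used strand, per the file header. The models of Slc30a1 and Slc30a10 are likewise overlapped by one on the opposite strand.

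**Figure D3:**
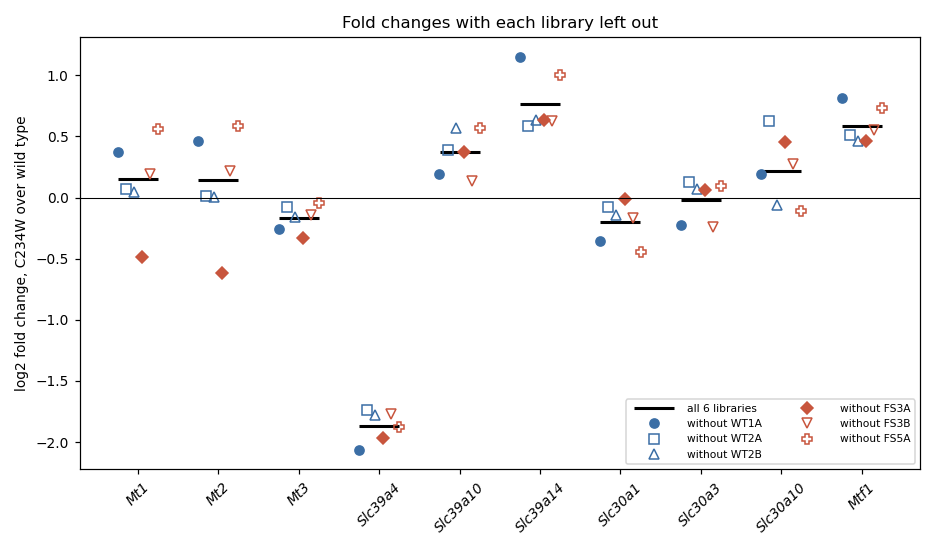
Log2 fold change of C234W over wild type (vertical axis) for each of the 10 genes, with all 6 libraries (black bar) and with each library left out (symbols, blue for wild type and red for C234W). Slc39a4, chosen for its fall in these libraries, stays between -2.06 and -1.74, and Mt1 and Mt2 change sign without FS3A.

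Of 11 further ZIP genes, 10 were tested, 0 passed in edgeR, 1 passed in DESeq2 and 1 was at an unadjusted p under 0.05, beside 1.46%, 11.9% and 25.4% of all genes. The median log2 fold change was -0.091. Slc39a2 was that gene. It was at 1.99, 2.05 and 0.809 CPM in WT1A, WT2A and WT2B and at 5.64, 3.41 and 3.90 CPM in FS3A, FS3B and FS5A, so the groups did not overlap. Its log2 fold change was 1.40 (SE 0.413, adjusted p = 0.0899 in edgeR and 0.0194 in DESeq2). Slc39a8, a zinc and manganese importer chosen after its values were seen, was also higher in each C234W library, at 3.61 ± 0.0499 against 2.32 ± 0.157 CPM (SD, n = 3 each), a log2 fold change of 0.635 (SE 0.282). Slc39a7, which releases zinc from the secretory pathway and was chosen in the same way, was lower in each, with a log2 fold change of -0.197 (SE 0.14). Groups thus did not overlap for 3 of 10 (2 higher and 1 lower), beside 29.1% of all genes. Slc39a12, chosen after its values were seen, was at 4.38 CPM in WT1A and 0.956 to 2.13 CPM in the other 5 libraries. The summed markers of pigment epithelium and of rods were also highest in WT1A, and their part in this value was not tested.

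Of 7 further ZnT genes, 6 were tested, and 0 passed in edgeR or in DESeq2, beside 1.46% and 11.9% of all genes. At an unadjusted p under 0.05 there was 1, beside 25.4% of all genes. The median log2 fold change was 0.35, with 4 higher and 2 lower. Slc30a9 had the smallest p and the highest level among them, at 255 ± 20.6 CPM in wild type and 192 ± 13.6 CPM in C234W (SD, n = 3 each). Its groups did not overlap, beside 29.1% of all genes, and the log2 fold change was -0.41 (SE 0.146, adjusted p = 0.135 in edgeR). Without WT1A, 1 of the 6 passed, Slc30a6, chosen after its values were seen, at 0.915 (adjusted p = 0.0374), beside 18.5% of all genes. Slc30a8, the exporter of insulin granules, had 1 count in WT2A and 0 in the other 5 libraries.

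**Figure D4:**
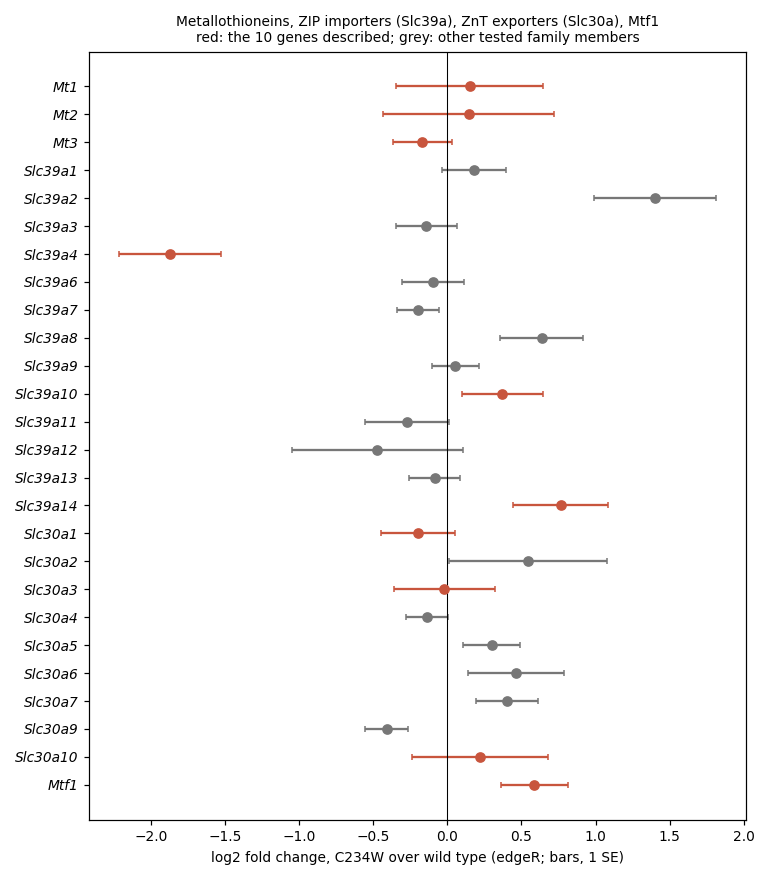
Log2 fold change of C234W over wild type (horizontal axis, points) with 1 SE (bars) for metallothioneins, importers, exporters and Mtf1, with the 10 genes in red and the other tested family members in grey. Slc39a4, chosen for its fall in these libraries, lies farthest below 0, at -1.87, and Slc39a2 farthest above, at 1.40. The bar of Slc39a4 is not to be read as a test.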

How the data were processed

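The values are those of 6 poly-A RNA libraries from mouse retina, 3 per genotype. The authors deposited estimated counts per gene, not normalized, in steps of 0.5, per the file headers. STAR (2.7.8a), per the submitters' processing notes, aligned the reads, and mm10 is the build in the file header. Exonic tags with a unique position were counted by HOMER, using the minus strand and keeping 1 isoform for each locus, per the header and the series' design text. Such counting loses tags shared between near-identical genes, and each value depends on the isoform kept. The transcript length comes from the deposited table. Of the columns with sample values, 0 were set aside.

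Counts were rounded to whole numbers (28.3 to 32.1% of values per library were not whole). The filter was filterByExpr of edgeR (version 4.0.16, under R 4.3.3), leaving 14685 of 25124 genes. Scaling was by TMM, and the test was edgeR's quasi-likelihood F test (robust fit, no covariates). P-values were adjusted by Benjamini-Hochberg over all tested genes, with a threshold of 0.05. A positive log2 fold change means higher in C234W. Each SE was computed from that test, as the absolute log2 fold change divided by the square root of the F statistic. CPM is given as mean ± SD over 3 libraries. Counts in genes were 65.8 to 74.4% of the header totals.

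The 10 genes and the lists were chosen with earlier results of these data known. Named beside them are, per list, the genes that passed (up to 4) or the one of smallest p, and the 5 genes most like Mt1 and Slc39a4 with a mean of at least 1 CPM. Alternatives were RLE and total-count scaling, no filter, a filter of 1 CPM in 3 samples, limma-voom (3.58.1), DESeq2 (1.42.0), unrounded counts, a loess length trend (span 0.3) removed, each library left out, and libraries of one name number summed. Tested on simulated counts for this comparison (14685 genes), edgeR found 42% of the 2-fold changes and 81% of the 4-fold ones. Of its 127 calls there, 4 were false, against 32 of 178 in DESeq2. The simulated counts were drawn independently for each gene, with no effect shared by the genes of a library. These rates may therefore not hold for the real libraries.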

Additional observations from a re-analysis of the deposited data

How the results depend on the processing

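Over the alternatives tried, the direction held for Slc39a10 (0.135 to 0.571), Slc39a14 (0.473 to 1.151), Slc30a1 (-0.444 to -0.009) and Mtf1 (0.318 to 0.815). Slc39a4 stayed between -2.06 and -1.71, but it was chosen for its fall in these same libraries, so this is no test of it. The direction did not hold for the other 5 genes. Mt1 and Mt2 were at -0.116 and -0.18 in limma-voom, and at -0.248 and -0.32 with libraries of one name number summed. With each library left out in turn they ran from -0.486 to 0.561 and from -0.617 to 0.582. Mt3 was at 0.004 with total-count scaling and 0.369 with the length trend removed. Slc30a3 was at 0.148 and 0.085 under the same settings, at 0.022 with libraries summed, and from -0.241 to 0.127 with a library left out. Slc30a10 ran from -0.111 to 0.626 with a library left out. The cause was not tested. The median over all genes was 0.205 under total-count scaling and 0.023 under TMM, so values under the former are to be read relative to that shift.

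The number of the 9 tested members that passed was 0 in each alternative other than those with a library left out, where it ran from 0 to 2. The 2 were Slc39a14 and Mtf1 without WT1A. At an unadjusted p under 0.05, the 2 of the 9 became 0 without WT2A, WT2B, FS3A or FS3B. The same held with the length trend removed and with libraries summed. Over all genes, 215 passed. This became 0 with RLE scaling, total-count scaling, the length trend removed or libraries summed (with 3753, 4349, 2835 and 1799 genes below 0.05 before adjustment), 353 without a filter and 1754 in DESeq2. With a library left out it ran from 0 to 2775, the latter without WT1A. It was 0 without WT2A, WT2B, FS3A or FS3B (2358, 2183, 2369 and 3630 genes below 0.05 before adjustment) and 4 without FS5A. The calls over all genes split into 27 higher and 188 lower, 81 and 272 without a filter, and 691 and 1063 in DESeq2. No paired analysis was possible because the deposited columns carry none of the replicate numbers of the labels. Depth limits Slc30a10, Slc30a3 and Slc39a4, with under 100 counts in each library.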

Other observations

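Other metal-handling genes were examined beside the zinc genes. Of 20 genes of iron, copper and manganese handling, 0 passed in edgeR and 6 passed in DESeq2, with 9 at an unadjusted p under 0.05, of which 6 were higher and 3 lower. The shares of all tested genes were 1.46%, 11.9% and 25.4% (11.9% higher and 13.5% lower). The median log2 fold change was 0.251, against 0.023 over all tested genes. Atox1, the copper chaperone of the secretory pathway, had the smallest p. It was at 25.4 ± 1.37 CPM in wild type and 15.3 ± 0.619 CPM in C234W (SD, n = 3 each), a log2 fold change of -0.73 with an SE of 0.164 (adjusted p = 0.0576 in edgeR), and it was -0.173 with the length trend removed. Among genes chosen after their values were seen, Fth1, the ferritin heavy chain, was at 1556 ± 139 and 934 ± 142 CPM, and the copper transporter Slc31a2 at 84.0 ± 29.4 and 173.7 ± 41.7 CPM (SD, n = 3 each), both without overlap. Neither passed (adjusted p = 0.0646 and 0.0665 in edgeR). Of the 20 genes, 3 higher and 4 lower had groups that did not overlap, beside 29.1% of all genes (12.6% higher and 16.4% lower). Without WT1A, 7 of the 20 passed in edgeR, beside 18.5% of all genes, and they did not share a direction. Slc31a1, Slc31a2, Atp2c1 and Atp13a1 were higher there, and Fth1, Atox1 and Cox17 were lower.

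In 12 genes of glutathione and thiol defence, 0 passed in edgeR and 2 in DESeq2, and 2 were at an unadjusted p under 0.05, both lower. These counts are near the shares of all genes, 11.9% in DESeq2 and 13.5% lower at an unadjusted p under 0.05. Sod1, the copper and zinc superoxide dismutase, was at 128, 173 and 181 CPM in WT1A, WT2A and WT2B and at 101, 93.9 and 82.1 CPM in FS3A, FS3B and FS5A, a log2 fold change of -0.80 with an SE of 0.176 (adjusted p = 0.056 in edgeR). It was -0.284 with the length trend removed. Srxn1, a sulfiredoxin chosen after its values were seen, was at 997, 92.0 and 109 CPM in wild type and at 1224, 451 and 295 CPM in C234W. Its 2 highest libraries, FS3A and WT1A, were also the 2 highest for Mt1 and Mt2. Slc7a11, the cystine transporter, chosen in the same way, was at 16.9, 1.29 and 2.35 CPM in wild type and at 32.2, 20.3 and 8.78 CPM in C234W. Without WT1A, 4 of the 12 passed in edgeR, beside 18.5% of all genes, and they did not share a direction. Srxn1 (log2 fold change 2.711) and Slc7a11 (3.516) were higher there, and Sod1 (-0.933) and Sod2 (-0.655) were lower.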
